A study of Mus musculus with 7 samples.

Results

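The genes described here write, erase and read histone acetylation. The list held 37 mouse genes in 4 classes: 10 acetyltransferases, 14 deacetylases with their corepressors, 5 sirtuins and 8 bromodomain genes. Each gene was represented by the row of an H3K79me2 read-count table that overlapped its mm10 RefSeq span and had the highest mean count. A row was found for 34 of the 37 genes, out of 29397 rows in all. No row of the table overlapped Kat2a (chromosome 11, 100704746 to 100712485), Hdac7 (chromosome 15, 97792661 to 97844502) or Hdac11 (chromosome 6, 91156670 to 91174692).

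H3K79me2 (dimethylated H3K79) was mapped by ChIP-seq, which sequences the DNA pulled down with an antibody to the mark, in macrophages grown from the bone marrow of C57BL/6 mice. One group of 3 libraries came from cells given 1 µM SGC0946, which blocks the enzyme DOT1L, while they differentiated, and the other group of 3 came from cells given DMSO, the solvent. Cells of both groups grew for 7 to 8 days in medium conditioned by L929 cells as a source of M-CSF, and were fixed with 1% formaldehyde for 10 min. The protocol speaks of WT and KO mice without assigning the samples to either, and no age of the mice is stated. Each library is bulk chromatin, so fewer cells with the mark and less mark per cell cannot be told apart.

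Acetyltransferases attach acetyl groups to histone lysines, deacetylases and sirtuins remove them, and bromodomains bind the acetylated lysine. Most of these enzymes work inside large complexes whose scaffold proteins decide where they act. H3K79me2 is laid down by DOT1L over the early part of transcribed genes. DOT1L is linked to acetylation because its partners AF9 and ENL carry a YEATS domain that binds acetylated lysine. In macrophages, acetylation at enhancers and promoters accompanies the induction of inflammatory genes, and deacetylase corepressors hold many of these genes back.

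The libraries held 2.95 to 3.13 M counts with SGC0946, against 16.7 to 19.5 M with DMSO, so the mean total with SGC0946 was 17.1% of that with DMSO. The number of reads sequenced per library was not given beyond an equal nominal depth, and how far it moves with the totals was not tested. Of 9 macrophage markers, all had a region, from 84.5 to 339 DMSO counts per kb. Of 22 markers of other cell types, 5 had one, and Zbtb46 alone had a mean of at least 50 counts. The regions of Zbtb46 and Cd68, a macrophage marker, each overlapped 3 coding genes. Of their lengths, 5953 of 14466 bp lay in Zbtb46 and 1958 of 19274 bp in Cd68.

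Promoter sequences are shown for Brd2 and Brd3 and for Kat7 and Kat8, 2 pairs of related genes that kept very different shares of their counts. Each runs from 250 bases before to 50 after a RefSeq start (GRCm38.p6, the assembly named mm10), on the strand of the gene, and capitals mark the dinucleotide CG. The start nearest to the upstream edge of the region was taken, and the start of Kat7 lies just outside its region. They lie at chr17:34122558-34122857 (Brd2, minus strand), chr2:27475349-27475648 (Brd3, minus), chr11:95310197-95310496 (Kat7, minus) and chr7:127912267-127912566 (Kat8, plus).
Brd2: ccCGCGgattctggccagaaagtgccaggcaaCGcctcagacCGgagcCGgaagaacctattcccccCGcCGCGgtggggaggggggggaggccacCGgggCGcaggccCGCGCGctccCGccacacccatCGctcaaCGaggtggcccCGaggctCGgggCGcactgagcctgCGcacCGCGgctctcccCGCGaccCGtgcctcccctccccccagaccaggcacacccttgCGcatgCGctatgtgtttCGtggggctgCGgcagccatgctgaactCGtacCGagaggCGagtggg
Brd3: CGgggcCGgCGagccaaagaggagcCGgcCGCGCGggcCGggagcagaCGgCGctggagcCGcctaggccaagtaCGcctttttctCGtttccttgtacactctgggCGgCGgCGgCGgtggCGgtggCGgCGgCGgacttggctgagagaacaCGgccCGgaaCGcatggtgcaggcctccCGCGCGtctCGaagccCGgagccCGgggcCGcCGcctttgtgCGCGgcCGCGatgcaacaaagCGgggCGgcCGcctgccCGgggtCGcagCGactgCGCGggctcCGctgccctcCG
Kat7: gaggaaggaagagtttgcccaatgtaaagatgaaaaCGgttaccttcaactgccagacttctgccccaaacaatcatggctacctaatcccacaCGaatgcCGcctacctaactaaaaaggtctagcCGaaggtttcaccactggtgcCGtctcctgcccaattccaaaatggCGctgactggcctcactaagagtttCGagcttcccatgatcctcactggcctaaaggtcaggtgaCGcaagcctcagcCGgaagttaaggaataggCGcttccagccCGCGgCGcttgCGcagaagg
Kat8: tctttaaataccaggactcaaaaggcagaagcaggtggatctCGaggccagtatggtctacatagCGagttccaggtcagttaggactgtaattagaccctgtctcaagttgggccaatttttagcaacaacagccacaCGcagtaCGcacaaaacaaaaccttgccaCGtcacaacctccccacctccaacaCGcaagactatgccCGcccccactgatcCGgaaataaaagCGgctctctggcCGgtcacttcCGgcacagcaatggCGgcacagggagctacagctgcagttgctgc
Brd2 had 32 CG and Brd3 had 46, while Kat7 had 14 and Kat8 12. Among 32851 RefSeq promoters of this length the median was 7 CG, and it was 21 in 9907 promoters of coding genes with a region. The 29 members with an annotated start had a median of 30 CG, so Brd2 and Brd3 lay above this middle and both MYST family genes below it. The motif CCAAT, searched on both strands, was found in the windows of Kat7 and Kat8 and in 37.4% of all promoters. GGGCGG, which holds a CG, was found in those of Brd3 and Kat8 and in 35.7% of all promoters. TATAAA was in none of the 4 windows and in 13.6% of all promoters. In the 9907 promoters of coding genes with a region, CCAAT was found in 37.7%, GGGCGG in 63% and TATAAA in 6.74%.

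Regions lay over nearly the whole list and mostly at the start of the gene. A region overlapped 34 of 37 members (91.9%), against 43.4% of 21896 coding genes. These 34 include Hdac8, whose region had only 2.67 DMSO counts per kb. By class this was 9 of 10 acetyltransferases, 12 of 14 deacetylases and corepressors, all 5 sirtuins and all 8 bromodomain genes. For 29 members a start was annotated, and in 20 of them the upstream edge of the region lay within 1 kb of it. Hdac9, a class IIa deacetylase, had its main region inside the gene, 203 kb downstream of one start and 168 kb upstream of the other.

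**Figure D1:**
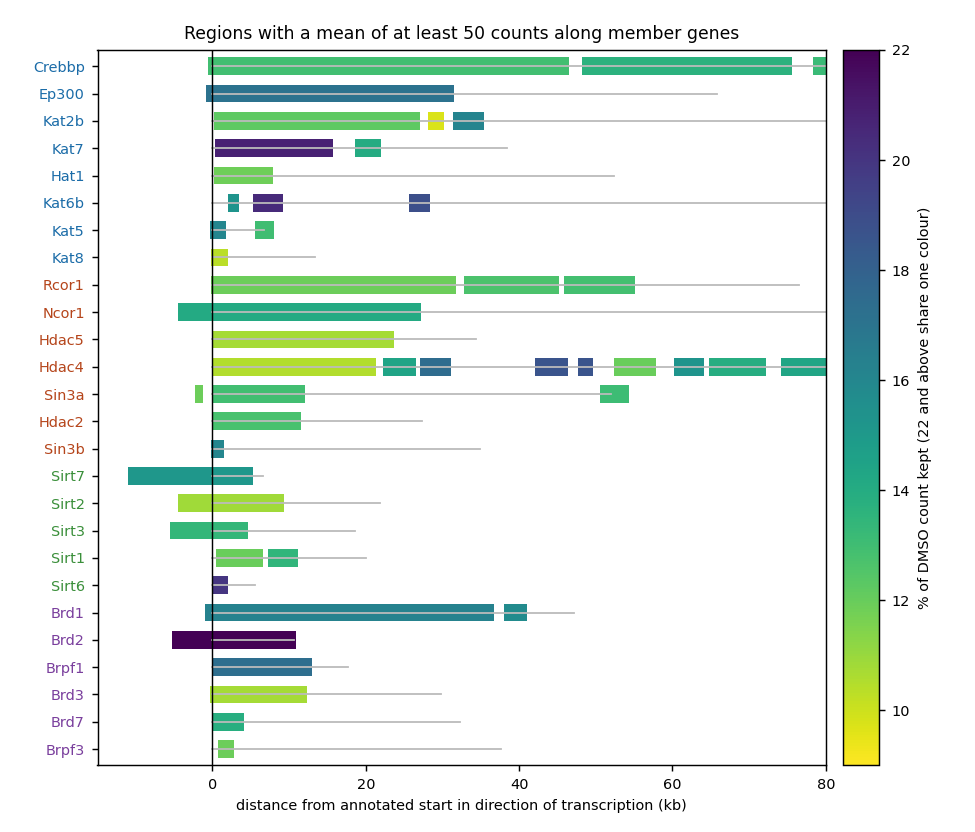
Regions averaging 50 or more counts along 26 member genes, drawn as distance in kb from the annotated start in the direction of transcription (to 80 kb). Grey lines are the gene spans, bar colour is the percent of the DMSO count kept with SGC0946, and label colours follow the 4 classes (acetyltransferases blue, deacetylases and corepressors red, sirtuins green, bromodomain genes purple). In most genes the main bar begins near the start, and further bars lie inside genes such as Hdac4 and Kat6b. The bars of Sirt7, Sirt3, Sirt2, Brd2 and Ncor1 reach upstream over a neighbouring gene.

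With DMSO the densest members were acetyltransferases and bromodomain genes. Kat6a had 258 DMSO counts per kb, Brd2 247, Brd7 245 and Ep300 242, and these were denser than 90.4%, 88.6%, 88.3% and 87.7% of 7939 coding genes with a mean of at least 50 counts. The class medians were 128 DMSO counts per kb for acetyltransferases, 115 for deacetylases and corepressors, 136 for sirtuins and 223 for bromodomain genes, beside 108 for all coding genes with a region. At the low end stood Hdac8 with 2.67, Kat6b with 36.1, Brd9 with 44.0 and Sirt6 with 49.8 DMSO counts per kb. The sparsest 25% of all regions averaged 6.13 counts per kb with SGC0946 and 21.8 with DMSO.

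Setting SGC0946 against DMSO asks how much of the mark was lost from these genes and whether some kept more than others. All 33 members that could be tested fell on unscaled counts, which is also what 99.8% of coding genes did, while 0.022% of them rose (quasi-likelihood test of edgeR with an adjusted p under 0.05). Over all regions 99.7% fell and 0.0201% rose. Their median log2 fold change was -2.94, beside -2.83 for all coding genes. In 33 of the 34 members with a region every SGC0946 library lay below every DMSO library, and Hdac8, the exception, is described below. Among coding genes with a region the groups did not overlap in 96.7%, counting both directions.

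**Figure D2:**
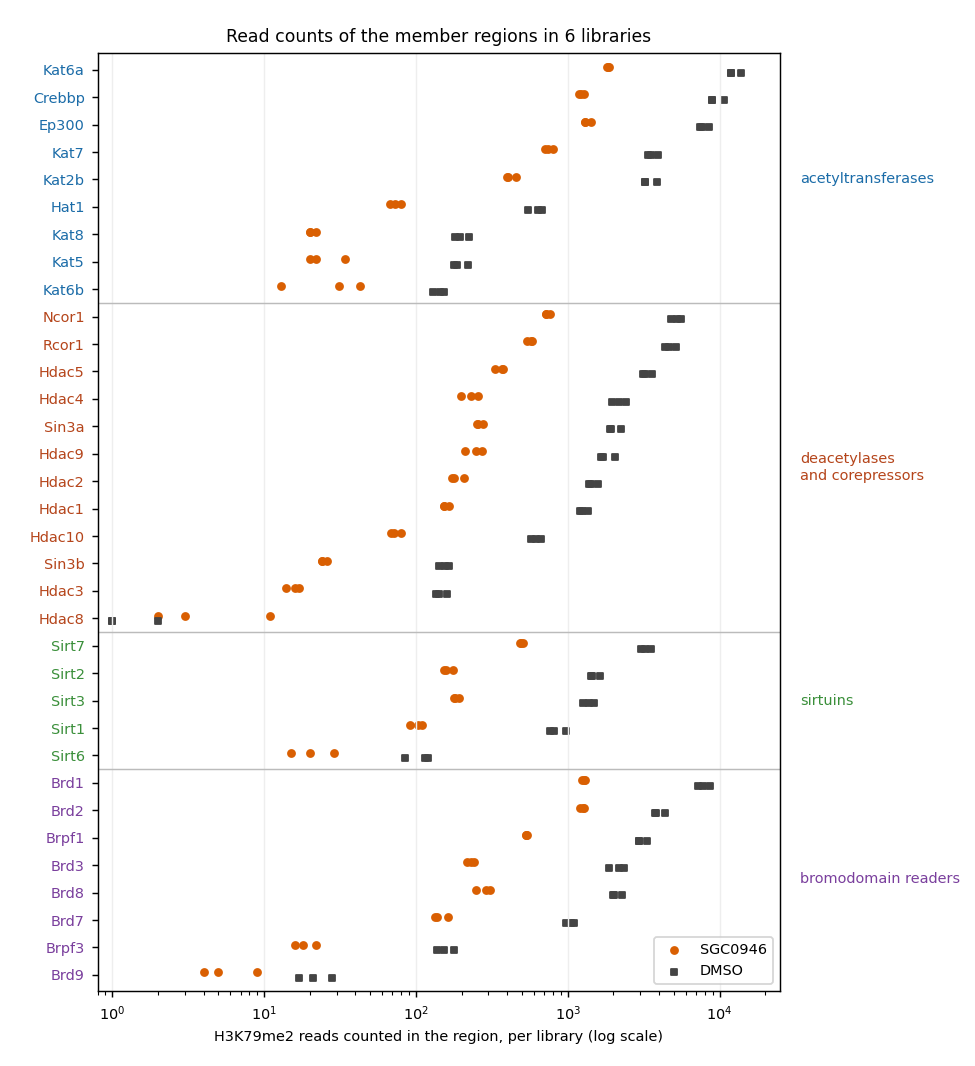
H3K79me2 reads counted in the region of each of 34 members, 1 point per library on a log scale, with 3 SGC0946 libraries as orange circles and 3 DMSO libraries as grey squares. Every gene but Hdac8 has all its circles to the left of its squares.

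After scaling by library totals, a fold change is that of a region's share of its library. By this measure 23 of 33 members fell in share, 2 rose (Kat7 and Brd2) and 8 did not pass (edgeR, adjusted p under 0.05). Over coding genes 50.1% fell and 9.98% rose, and over all regions 23.3% fell and 6.16% rose. The median log2 share change was -0.39 for members and -0.29 for all coding genes. Member regions had a median length of 11.9 kb, beside 5.97 kb for all coding genes with a region. How far length and count bear on the fraction called was not tested, for all members or by class. Without SGC0946 replicate 3 the rises were 4, Kat6b and Hdac8 being added, beside 2155 rises in 28733 regions. Scaling to the sparsest 25% of all regions left no rise and gave 30 falls, beside 195 rises and 13501 falls in 22351 regions. The DESeq2 Wald test called 14 falls and 3 rises among 34 members, beside 2831 falls and 2505 rises in 29397 regions.

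In terms of counts kept (mean SGC0946 count as a percent of mean DMSO count), the 32 members with a mean of at least 50 counts ranged from 10.4% for Kat8 to 31.3% for Brd2. Their median was 13.0%, beside 13.7% for 7939 coding genes with such a mean. The class medians were 13.0% for acetyltransferases, 12.5% for deacetylases and corepressors, 13.4% for sirtuins and 13.9% for bromodomain genes. The classes overlapped in range, and each held members below the median of all genes.

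**Figure D3:**
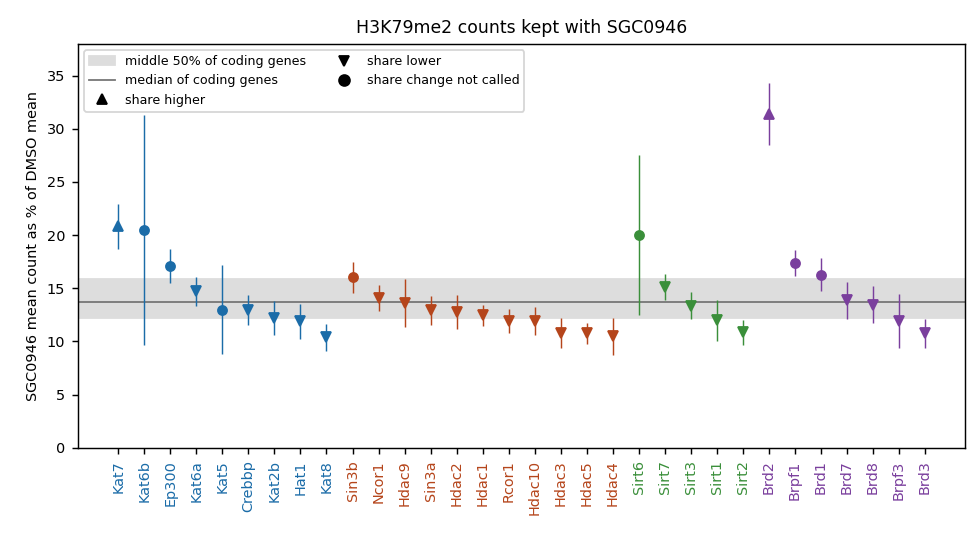
Percent of the DMSO count kept with SGC0946 by the 32 members with a mean of at least 50 counts, in 4 classes by colour, with error bars of 1 SD (propagated from 3 libraries a group). The grey band holds the middle 50% of 7939 coding genes, and the symbols give the call on the share of the library. Brd2 at 31.3% and Kat7 at 20.8% are the triangles pointing up, while the deacetylases and corepressors other than Sin3b point down.

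Among the acetyltransferases 5 of 9 fell in share, 1 rose and 3 did not pass, close to the 50.1% and 9.98% of all coding genes. Kat7, the catalytic subunit of HBO1 complexes, which acetylate histone H3 and H4 at gene starts and replication origins, was the one that rose. Its region (chromosome 11, 95294570 to 95309878) had 803, 713 and 745 counts with SGC0946, against 3380, 3537 and 3947 with DMSO. The groups did not overlap, and 20.8% of the count was kept. This was more than in 92.1% of 7939 coding genes with a mean of at least 50 counts. Its share rose by log2 0.28 ± 0.05 (SE, n = 3 per group, edgeR adjusted p = 7.8e-07), while its unscaled count fell by log2 -2.26 ± 0.11. With scaling on the sparsest regions the share value was -0.40 (adjusted p = 0.0565).

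Kat8, which acetylates histone H4 in the MSL and NSL complexes, kept least. Its region (chromosome 7, 127912365 to 127914603) had 20, 22 and 20 counts with SGC0946, against 180, 194 and 224 with DMSO. All SGC0946 values were about equal and far below the DMSO values. It kept 10.4%, and its share fell by log2 -0.72 ± 0.19 (SE, edgeR adjusted p = 0.00148), a call that was lost in the DESeq2 Wald test.

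The coactivator paralogs Ep300 and Crebbp, which acetylate histone H3 at enhancers, differed. Ep300 (chromosome 15, 81585304 to 81617777) had 1428, 1295 and 1299 counts with SGC0946, against 7404, 7621 and 8518 with DMSO. Crebbp (chromosome 16, 4166946 to 4213986) had 1190, 1278 and 1226 counts with SGC0946, against 8974, 8934 and 10667 with DMSO. So Crebbp had the higher counts in the DMSO libraries and Ep300 in the SGC0946 libraries. Ep300 kept 17.1% with a log2 share change of -0.00 ± 0.04 (SE, edgeR adjusted p = 0.996), and Crebbp kept 12.9% and fell in share by log2 -0.40 ± 0.04 (edgeR adjusted p = 1.2e-12).

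The MYST family genes Kat6a and Kat6b, which encode the MOZ and MORF acetyltransferases, stood at opposite ends of mark density. Kat6a (chromosome 8, 22859297 to 22907917) had the longest and densest region of the class. It had 1843, 1815 and 1880 counts with SGC0946, against 11832, 11932 and 13841 with DMSO. It kept 14.7% and fell in share by log2 -0.21 ± 0.04 (SE, edgeR adjusted p = 4.5e-06), a call lost with TMM factors, with DESeq2 size factors and in the DESeq2 Wald test. Kat6b was split into 15 regions, 8 of them of 500 bp, and its main one had 43, 31 and 13 counts with SGC0946, against 129, 144 and 152 with DMSO. The SGC0946 values of Kat6b were uneven, and its 20.5% kept came with a density of 36.1 DMSO counts per kb. Of 7939 coding genes with a mean of at least 50 counts, only 0.214% were less dense. The share change of Kat6b was log2 0.26 ± 0.20 (SE, edgeR adjusted p = 0.390). Its main region held 23.6% of the DMSO counts of the gene, and Kat6b was called higher when all its regions were summed.

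The other acetyltransferases kept 11.9% to 13.0%. Kat2b (PCAF), which acetylates histone H3 in SAGA and ATAC, kept 12.2% and fell in share by log2 -0.48 ± 0.05. Hat1, which acetylates newly made histone H4 before it is built into chromatin, kept 11.9% and fell by log2 -0.52 ± 0.11. Kat5 (TIP60), the catalytic subunit of NuA4, kept 13.0% with a log2 share change of -0.39 ± 0.18 that did not pass (edgeR adjusted p = 0.102). The main region of Kat5 lay at the 3′ end of the gene and overlapped Rnaseh2c as well. A further Kat5 region near its start kept 16.1% (log2 share change -0.09, adjusted p = 0.790).

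In the deacetylase and corepressor class 10 of 11 tested members fell in share, beside 50.1% of coding genes, none rose and Sin3b did not pass. Hdac10 is counted among these falls, on a region with only 0.115% of its length in its span. Hdac1 and Hdac2, the paired catalytic subunits of NuRD, SIN3 and CoREST, kept 12.5% and 12.8% and had log2 share changes of -0.46 ± 0.08 and -0.42 ± 0.07 (SE). Hdac3, the enzyme of the NCoR complexes, kept 10.8% of a small region and fell by log2 -0.66 ± 0.21 (edgeR adjusted p = 0.0121). That call was lost without SGC0946 replicate 3 (adjusted p = 0.0716) and in the DESeq2 Wald test (adjusted p = 0.175).

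Hdac4, Hdac5 and Hdac9 are class IIa deacetylases, which shuttle between nucleus and cytoplasm and act mostly by recruiting other repressors, and all 3 fell in share, while Hdac7 of the same class had no region. Hdac4 (chromosome 1, 92159021 to 92180385) had 231, 257 and 199 counts with SGC0946, against 2164, 1959 and 2429 with DMSO. Its SGC0946 values lay about an order of magnitude under the DMSO ones. It kept 10.5%, the lowest value of the class, and fell in share by log2 -0.70 ± 0.07 (SE, edgeR adjusted p = 8.9e-14). Only 3.21% of 7939 coding genes with a mean of at least 50 counts kept less. Hdac5 kept 10.8% (log2 share change -0.67 ± 0.06, adjusted p = 1.5e-16) and Hdac9 13.6% (-0.33 ± 0.07, adjusted p = 5.2e-05). The Hdac9 call was lost when the counts of all its regions were summed (adjusted p = 0.156).

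Hdac10, a polyamine deacetylase, and Hdac8, a class I enzyme, had no region that speaks for them clearly. Only 0.115% of the region standing for Hdac10 lay in its span, and the region also overlapped Tubgcp6. That region kept 11.9% and gave the fall in share that is counted for Hdac10 here. A smaller one inside Hdac10 kept 17.0% (49.0 DMSO counts, edgeR adjusted p of its share change = 0.992). The only Hdac8 region measured 500 bp and had 3, 11 and 2 counts with SGC0946, against 1, 1 and 2 with DMSO. These groups overlapped, the counts were too few for the main test, and the DMSO density of 2.67 counts per kb was below the 21.8 that the sparsest 25% of regions averaged.

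The corepressor scaffolds fell or did not pass. Rcor1, the core of CoREST, kept 11.9% (log2 share change -0.52 ± 0.05, SE), and Ncor1, which holds HDAC3 at nuclear receptors, kept 14.1% (-0.28 ± 0.05). The Ncor1 region also covered part of Pigl, and its call was lost with TMM factors, with DESeq2 size factors and in the DESeq2 Wald test. Sin3a, the densest member of the class with 166 DMSO counts per kb (chromosome 9, 57076350 to 57088492), had 276, 256 and 252 counts with SGC0946, against 1911, 1918 and 2236 with DMSO. Its groups lay far apart, 12.9% was kept, and its share fell by log2 -0.40 ± 0.06 (edgeR adjusted p = 1.6e-07). Its paralog Sin3b (chromosome 8, 72723093 to 72724790) had 24, 24 and 26 counts with SGC0946, against 156, 141 and 165 with DMSO. Sin3b kept 16.0%, the highest value of the class, with a log2 share change of -0.09 ± 0.19 (SE, edgeR adjusted p = 0.786).

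Sirtuins, which use NAD to remove acyl groups, fell in share in 4 of 5 cases, beside 50.1% of coding genes. Sirt2, a mainly cytoplasmic deacetylase, kept least. Its region (chromosome 7, 28762221 to 28776060) had 154, 176 and 158 counts with SGC0946, against 1451, 1414 and 1638 with DMSO. The groups were well apart, 10.8% was kept, and the share fell by log2 -0.66 ± 0.07 (SE, edgeR adjusted p = 2.5e-11). Sirt1, the nuclear deacetylase of histones and transcription factors, kept 12.0% (log2 share change -0.51 ± 0.09) and Sirt3, the mitochondrial one, 13.4% (-0.35 ± 0.07), a call lost in the DESeq2 Wald test (adjusted p = 0.0667).

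Sirt7, which is enriched in the nucleolus, was the densest sirtuin with 201 DMSO counts per kb. Its region (chromosome 11, 120619788 to 120636021) had 485, 505 and 493 counts with SGC0946, against 3026, 3243 and 3532 with DMSO. It kept 15.1% and its share fell by log2 -0.17 ± 0.05 (SE, edgeR adjusted p = 0.00593), a call lost with TMM factors, DESeq2 size factors, the DESeq2 Wald test and without SGC0946 replicate 1. Sirt6, a nuclear deacetylase of histone H3 (chromosome 10, 81625281 to 81627424), had 20, 29 and 15 counts with SGC0946, against 114, 85 and 121 with DMSO. Sirt6 kept 20.0% at a density of 49.8 DMSO counts per kb, and its share change of log2 0.23 ± 0.22 did not pass (edgeR adjusted p = 0.513). The regions of Sirt2, Sirt3 and Sirt7 also covered Nfkbib, Psmd13 and Mafg, with 67.3%, 45.5% and 32.2% of their length inside the sirtuin gene, so their counts belong to both genes of each pair.

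Of the bromodomain genes 4 of 8 fell in share, 1 rose and 3 did not pass, close to the 50.1% and 9.98% of all coding genes. Brd2, a BET family reader that binds acetylated histone tails and recruits transcription factors, kept most of all members. Its region (chromosome 17, 34111726 to 34127926) had 1267, 1209 and 1283 counts with SGC0946, against 3761, 3831 and 4399 with DMSO. The groups did not overlap, yet 31.3% was kept. This was more than in 98.2% of 7939 coding genes with a mean of at least 50 counts. The share rose by log2 0.88 ± 0.04 (SE, edgeR adjusted p = 1.1e-27) and the unscaled count fell by log2 -1.67 ± 0.10. With scaling on the sparsest regions the share value was 0.20 (adjusted p = 0.374). The region covered all of Brd2 and part of H2-DMa, with 66.6% of its length in Brd2.

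Brd3, a further BET gene, lay at the other end. Its region (chromosome 2, 27463081 to 27475734) had 242, 216 and 230 counts with SGC0946, against 2191, 1867 and 2343 with DMSO. It kept 10.7%, and its share fell by log2 -0.67 ± 0.07 (SE, edgeR adjusted p = 8.3e-13). The density of Brd3 was 169 DMSO counts per kb, beside 247 for Brd2.

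Brd1, Brpf1 and Brpf3 encode the scaffolds that join MOZ, MORF or HBO1 to their accessory subunits. Brd1 kept 16.3% and Brpf1 17.4%, with log2 share changes of -0.07 ± 0.04 and 0.02 ± 0.05 (SE, edgeR adjusted p = 0.264 and 0.794). Brpf3 kept 11.9% of 156 DMSO counts, and its fall of log2 -0.51 ± 0.20 (adjusted p = 0.0477) was lost in 11 of 15 alternatives. Brd7 and Brd9 are subunits of different SWI/SNF remodelling complexes. Brd7 kept 13.9% (log2 share change -0.30 ± 0.08), and Brd9 had 4, 9 and 5 counts with SGC0946, against 17, 21 and 28 with DMSO, with no call on its share (adjusted p = 0.283). The Brd7 call was lost with TMM factors, DESeq2 size factors, the DESeq2 Wald test and without SGC0946 replicate 1 (adjusted p = 0.0800). Brd8, a NuA4 subunit, kept 13.5% (-0.34 ± 0.06), a call lost in the DESeq2 Wald test (adjusted p = 0.118).

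Related genes were also set against each other within each library, where scaling cancels. There were 9 pairs, chosen by relatedness with earlier results of these data known. Brd2 with Brd3 and Kat7 with Kat8 join the highest and lowest percent kept of their classes. The ratios rest on the same counts as the percent kept and are no independent support for it. The count ratio of Brd2 to Brd3 was 5.24, 5.60 and 5.58 with SGC0946, against 1.72, 2.05 and 1.88 with DMSO. Kat7 had 40.2, 32.4 and 37.3 times the count of Kat8 with SGC0946, against 18.8, 18.2 and 17.6 times with DMSO. For Ep300 over Crebbp the ratio was 1.20, 1.01 and 1.06 with SGC0946, against 0.825, 0.853 and 0.799 with DMSO. In these 3 pairs the ratio was higher in every SGC0946 library, by 2.91-fold, 2.00-fold and 1.32-fold (exact 2-sided permutation p = 0.1 each, the smallest that 3 against 3 libraries allow, and 0.15 adjusted over 9 pairs).

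In 3 further pairs the libraries of the groups did not overlap either (exact permutation p = 0.1 each). The ratio of Brpf1 to Brpf3 was 24.2, 33.7 and 29.7 with SGC0946, against 21.7, 19.3 and 18.6 with DMSO, and that of Sin3b to Sin3a was 0.0870, 0.0938 and 0.103 with SGC0946, against 0.0816, 0.0735 and 0.0738 with DMSO. Brd1 over Brpf1 was slightly lower with SGC0946, at 0.938-fold. The deacetylase pairs overlapped. Hdac1 over Hdac2 was 0.927, 0.740 and 0.890 with SGC0946, against 0.847, 0.902 and 0.859 with DMSO (log2 difference -0.03 ± 0.10, SE, exact permutation p = 0.9). Hdac5 over Hdac4 changed by log2 0.04 ± 0.08 (exact permutation p = 0.7). Kat6a over Kat6b, from 42.9 to 145 with SGC0946 and from 82.9 to 91.7 with DMSO, overlapped too.

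**Figure D4:**
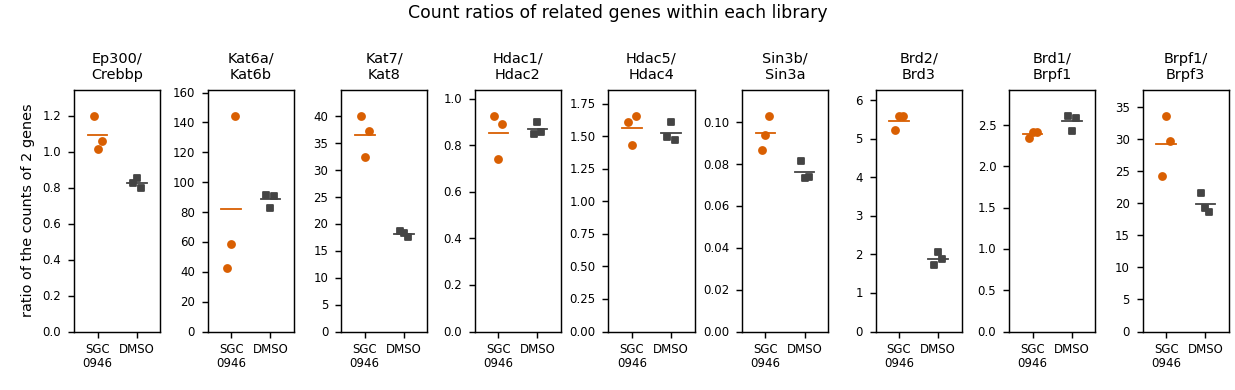
Ratio of the counts of 2 related genes within each library for 9 pairs, with 3 SGC0946 libraries as orange circles, 3 DMSO libraries as grey squares and lines at the means (each axis starts at 0). Brd2 over Brd3 is above 5 in every SGC0946 library and at most 2.05 in DMSO, while Hdac1 over Hdac2 and Hdac5 over Hdac4 overlap.

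The percent kept differed with mark density, and not in 1 direction. Among coding genes with a mean of at least 50 counts, the median kept was 16.7% below 50 DMSO counts per kb, 12.5% from 100 to 150 and 15.8% from 200 to 300. The 10 members from 100 to 150 kept a median of 12.1% and the 10 members from 200 to 300 kept 15.7%, beside the 12.5% and 15.8% of all coding genes of like density. From 50 to 100 the 7 members kept a median of 11.9%, beside 13.6% (lower quartile 12.5%) of coding genes. That median of 11.9% is the value of Hdac10, whose region lay almost wholly outside its span. Kat6b and Sirt6, the 2 members below 50, kept a median of 20.2%. Over the 32 members Spearman's rho of density and percent kept was 0.379, and over the 7939 coding genes 0.175. These values describe points that share libraries and differ in depth, and the DMSO count enters both quantities. The part of density in the differences between classes was not tested.

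**Figure D5:**
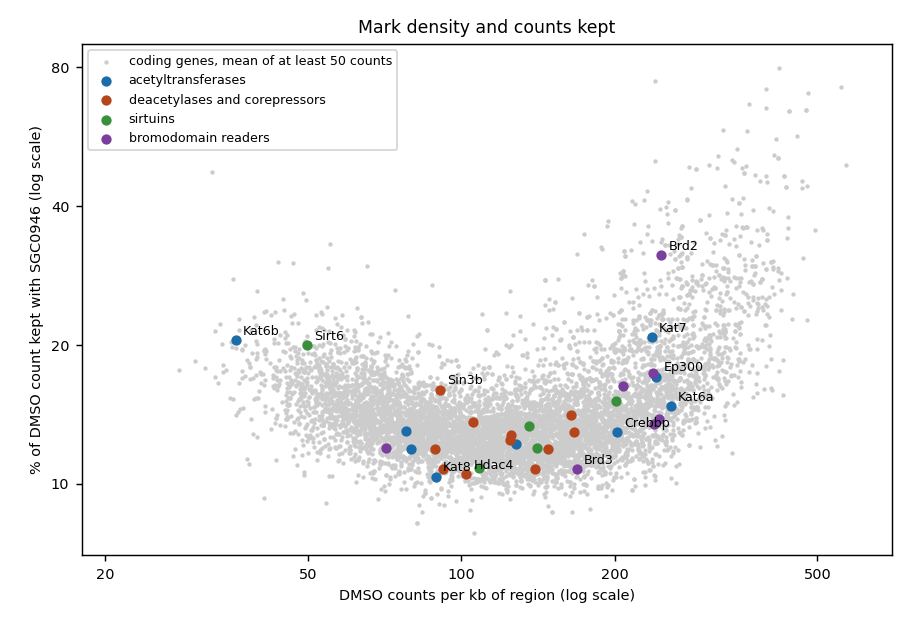
Percent of the DMSO count kept with SGC0946 against DMSO counts per kb, both on log scales, for 7939 coding genes with a mean of at least 50 counts (grey) and 32 members (coloured by class). Kept values are lowest near 100 to 150 counts per kb, and at 200 to 300 counts per kb Brd2 and Kat7 lie above the upper quartile of coding genes (19.5%).

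Regions of 1 gene did not all keep the same. Besides the main one, 11 members had 36 further regions averaging 50 or more counts, and 30 of these kept more than the main region of their gene. Of these 30, Hdac4 gave 15 and Hdac9 7, and in the other 9 genes further regions went both ways. Hdac4 had 36 regions, 16 with such a mean, and all 15 beside the main one kept more, from 11.9% to 18.6%. Their density was 39.8 to 79.6 DMSO counts per kb, against 102 in the main region. With SGC0946 the same 15 had 5.84 to 10.2 counts per kb and the main one 10.7, so they were more alike with the inhibitor than with DMSO. The sparsest 25% of all regions averaged 6.13 counts per kb with SGC0946. How far such a floor makes the Hdac4 regions alike was not tested. Kat7 ran the other way: its further region kept 14.0% at 48.9 DMSO counts per kb, against 20.8% in the main region. Summed over all regions of a gene, Hdac4 kept 13.5%, Hdac9 15.9% and Brpf3 16.9%.

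Of 77 partner genes from the same complexes, 75 had a region. In share 48 fell, 6 rose and 21 did not pass (edgeR, adjusted p under 0.05), which is 64.0% and 8.00%, beside 50.1% and 9.98% of all coding genes. Among partners of acetyltransferases, 12 of 19 SAGA and ATAC genes fell and 2 rose, 6 of 14 NuA4 genes fell and 2 rose, and 7 of 13 tested MOZ, HBO1, MSL and NSL genes fell and 2 rose. Among partners of deacetylases, 8 of 11 NuRD, 8 of 10 SIN3 and 7 of 8 tested CoREST and NCoR genes fell and none rose. Morf4l1, a chromodomain subunit shared by NuA4 and SIN3, kept 50.3% (log2 share change 1.56 ± 0.04, SE, adjusted p = 3.2e-44), and Msl2, a ubiquitin ligase of the MSL complex, 43.8% (1.36 ± 0.04, adjusted p = 8.0e-41). At the low end were Atxn7l3 of SAGA with 10.2% (-0.75 ± 0.14) and Mta1 of NuRD with 10.2% (-0.74 ± 0.09). The median log2 share change of the partners was -0.33, beside -0.29 for all coding genes.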

How the data were processed

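The authors deposited whole-number read counts for 29397 regions in 6 H3K79me2 ChIP libraries, which are not scaled. The tools named, per the submitters' processing notes, are ChIPseeker 1.20.0, R 3.6.3, bedtools 2.27.0, HISAT2 and HOMER 4.11.1, and the build is mm10. No role is stated for any of them, nor the handling of duplicates and multiply mapping reads, and each step could change the counts. The labels' input sample was not used here. The table gave no strand or exon position.

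Regions were matched to RefSeq gene spans of GRCm38.p6 with Python 3.11.15, pandas 2.3.3 and numpy 2.4.6, and starts were read as zero-based and are printed 1-based. The test was edgeR's (version 4.0.16, R 4.3.3; quasi-likelihood, filterByExpr by group, Benjamini-Hochberg over all tested regions, 23367 on library totals and 24895 unscaled, adjusted p under 0.05). The standard errors were derived from the fold change and F. DESeq2 1.42.0, permutation tests in scipy 1.17.1 and figures in matplotlib 3.10.9 were also used. The edgeR step was tested on simulated data. Library pairs within a group differed beyond counting noise (chi-square per degree of freedom 1.32 to 2.38). The replicates are called biological, without naming animals, so p-values measure the spread between these samples. Intervals and errors do not cover processing before deposit.

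The members, lists, tests and alternatives were chosen with earlier results of these data known. All members are named. Values of all libraries are given for the highest and lowest percent kept and the highest density in each class, for every rise in share, and, chosen after their values were seen, for Ep300, Crebbp, Kat6b, Hdac8 and Brd9. Of the partners, the 2 highest and 2 lowest in percent kept with a mean of at least 50 counts are named.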

Additional observations from a re-analysis of the deposited data

How the results depend on the processing

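The members that fell on unscaled counts did so under each alternative in which they were tested (DESeq2 Wald test, other filters, each library left out, replicate block, summed regions, single-gene regions), and Hdac8, tested without a count filter and in the DESeq2 Wald test, did not. Falls in share numbered 23 in the main fit, 21 to 23 with a library left out, 14 with the DESeq2 Wald test and 30 when scaled to the sparsest regions. Rises numbered 2 in the main fit, 2 to 4 with a library left out, 0 when scaled to the sparsest 25% of all regions and 1 without members whose region overlaps another coding gene (Brd2 is then left out by construction). That scaling moved the median log2 change of all regions to -0.82, against -0.09 on library totals, and turned the share values of Kat6b (-0.46), Kat7 (-0.40), Sirt6 (-0.49) and Brpf1 (-0.66) below 0. TMM factors and DESeq2 size factors moved that median to 0.03 and gave 18 falls each. Rises were 20.9% of calls over all regions, 33.0% with TMM factors and 33.3% with DESeq2 size factors. They were 46.9% of calls with the DESeq2 Wald test and 1.42% with sparse scaling. Of 490 single-gene values under alternatives, 446 stayed on their side of the threshold. Another 32 lost a call and 8 gained one in the same direction, and 4 turned sign with a call before or after. These 4 are the values named above: Kat7 lost its rise, and Kat6b, Sirt6 and Brpf1, with no call before, fell. Among the 446, 17 values changed sign with no call before or after. No called rise became a called fall. The numbers M1 to M3 did not pair the libraries (correlations of deviations 0.00921, -0.114 and -0.012), and the replicate block gave 22 falls and 2 rises, losing Brpf3, and 33 falls on unscaled counts. Depth limits members with few counts, Hdac8 and Brd9 most of all.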
